A study of Mus musculus with 6 samples.

Results

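The genes described here encode the signalling part of the T cell antigen receptor and the first proteins that relay its signal. They are the CD3 chains (Cd3d, Cd3e, Cd3g), the zeta chain (Cd247), the coreceptor Cd4, the kinases Lck and Zap70 and the adaptors Lat and Lcp2 (SLP-76). The members were chosen by symbol, as every probe set that the platform's annotation assigns to 1 of these 9 genes. That gave 8 genes with 14 probe sets, among 12393 genes and 22626 probe sets in all, with 4 probe sets for Cd247, 2 each for Cd4, Zap70 and Lcp2, and 1 each for Cd3d, Cd3e, Cd3g and Lat. The annotation table names no probe set for Lck, which was not analysed here.

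Transcript levels had been measured on 6 one-colour oligonucleotide arrays of total RNA from mouse CD4+CD25+ cells, separated with magnets to obtain regulatory T cells. The wild type group holds 3 arrays of C57BL6 mice. The knockout group holds 3 arrays of fl-DNMT1/Foxp3cre mice on the C57BL6 strain, in which a floxed gene for the maintenance DNA methyltransferase Dnmt1 is cut by Cre recombinase driven by Foxp3, the lineage factor of regulatory T cells. Cells in the separated fraction that have never expressed Foxp3 are outside the reach of that Cre. The labels give no age and no Cre-only control, so the deletion cannot be told apart from the Cre or the floxed allele itself. Samples within a group are described as independent, with no animal named for each, and p-values therefore cover the spread between samples, which may be technical.

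An alpha-beta T cell receptor has no signalling motif of its own. It passes its signal through the CD3 and zeta chains, whose tyrosines are phosphorylated by Lck, a kinase carried by the coreceptor. Zap70 then docks on these tyrosines and phosphorylates Lat and Lcp2, on which enzymes such as phospholipase C gamma assemble. The CD3 chains mark T cells among blood cells, while NK cells also carry Cd247, Zap70, Lat and Lcp2, and Lcp2 is also present in myeloid cells and platelets. Read together, the members were taken as a rough gauge of how much T cell RNA each array holds, to which RNA of NK and myeloid cells can add. In a sample of mixed cells, fewer T cells and less of a transcript per T cell cannot be told apart.

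The stretches before the start sites of the CD3 chain genes are shown because these genes lie next to each other, in the order Cd3g, Cd3d, Cd3e on chromosome 9, and their levels shared an order over the knockout arrays. That of Zap70 is shown because its level did not follow that order. Sequences are those of RefSeq on build GRCm38.p6, 5' to 3' on the gene's strand, cut back to bases outside the annotated gene. Capitals mark CpG dinucleotides, the sites that Dnmt1 methylates.
Cd3g (chr9:44980432-44980681, minus strand): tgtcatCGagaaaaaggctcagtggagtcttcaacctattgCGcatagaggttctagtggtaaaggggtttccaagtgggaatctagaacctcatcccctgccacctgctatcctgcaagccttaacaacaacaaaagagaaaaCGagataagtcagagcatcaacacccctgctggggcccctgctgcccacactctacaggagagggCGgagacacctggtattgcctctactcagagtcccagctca
Cd3d (chr9:44981536-44981768, plus strand): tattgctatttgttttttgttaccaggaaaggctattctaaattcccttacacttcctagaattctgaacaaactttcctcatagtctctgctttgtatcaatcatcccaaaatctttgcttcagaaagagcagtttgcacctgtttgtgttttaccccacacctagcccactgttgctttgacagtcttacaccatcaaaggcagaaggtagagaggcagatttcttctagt
Cd3e (chr9:45009664-45009861, minus strand): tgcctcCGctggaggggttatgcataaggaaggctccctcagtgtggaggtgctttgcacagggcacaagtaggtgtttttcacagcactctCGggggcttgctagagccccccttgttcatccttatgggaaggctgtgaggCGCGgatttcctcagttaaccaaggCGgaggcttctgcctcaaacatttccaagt
Zap70 (chr1:36761548-36761797, plus strand): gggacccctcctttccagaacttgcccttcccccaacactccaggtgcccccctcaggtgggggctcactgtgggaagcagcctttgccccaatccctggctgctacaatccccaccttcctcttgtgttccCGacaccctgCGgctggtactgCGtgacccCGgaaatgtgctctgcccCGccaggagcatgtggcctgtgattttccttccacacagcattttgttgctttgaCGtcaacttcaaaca
In the whole window of 250 bases, Cd3d had 0 CpG, Cd3g 4, Zap70 6 and Cd3e 7, of which 5 lie in the printed bases of Cd3e. The bases of a window that are not printed lie within the annotated gene. Over 32851 promoter windows of the same length the median was 6, and 7.87% had 0. The sequence AGGAAGT, a form of the ETS factor motif, was looked for on both strands. It was found once in the window of Cd3d and once in that of Cd3e, in the latter within the bases that are not printed, and in 7.69% of all windows. The E-box CACCTG, also on both strands, occurred once before Cd3d, 2 times each before Cd3g and Zap70, and in 17.2% of all windows. The windows of Lat, whose level shared the order of the CD3 chains, and of Lcp2, whose level did not, had 6 and 0 CpG. Neither motif was found in them. These are matches of letters, and methylation was not measured. A relation of sequence to the order of the arrays was not tested.

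Values are log2 expression made by the authors with RMA, which normalises between arrays. Differences are knockout minus wild type on that log2 scale, ± gives the SD over a group's 3 arrays, and calls are limma adjusted p under 0.05 over all probe sets. Array medians over all probe sets lay between 5.70 and 5.77 and upper quartiles between 7.79 and 7.84. The brightest probe set of each of the 8 genes lay above the upper quartile on all 6 arrays, while the dimmer one of Cd4 lay below it on all 6. The neutrophil marker S100a8 also lay above it on all 6 arrays, so such levels do not by themselves identify the cells. The targeted gene Dnmt1 measured 9.50 ± 0.07 in wild type and 8.96 ± 0.34 in the knockout (limma adjusted p = 0.162). Foxp3 had 9.50 ± 0.02 and 8.84 ± 0.42 (adjusted p = 0.151). Neither passed, and the labels do not place the Dnmt1 probes relative to the deleted part. Without knockout replicate 3 Dnmt1 was called lower (difference -0.72, adjusted p = 0.0457), and without knockout replicate 1 Foxp3 was (-0.87, adjusted p = 0.0204).

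No difference between the groups was detected in the measured genes of the receptor and its proximal signalling. Of the 14 member probe sets 0 passed the limma test, and 0 had an unadjusted p under 0.05. Over all 22626 probe sets 1.68% were called (270 higher and 110 lower in the knockout), and 16.6% had an unadjusted p under 0.05. The member differences ran from -0.22 for Cd4 to -0.01 for the dimmer Cd4 probe set, with a median of -0.08, against a median of -0.02 over all probe sets. All 14 were negative, as were 54.8% of all probe sets. The sign rested on small amounts. With the deposited values normalised again, 11 of 14 were negative by cyclic loess, and 14 of 14 by quantile normalisation and by median centring. These intervals leave room for moderate change: the lowest bound of a 95% confidence interval was -0.59, for a Cd247 probe set, and the highest was 0.43, for another probe set of the same gene.

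**Figure D1:**
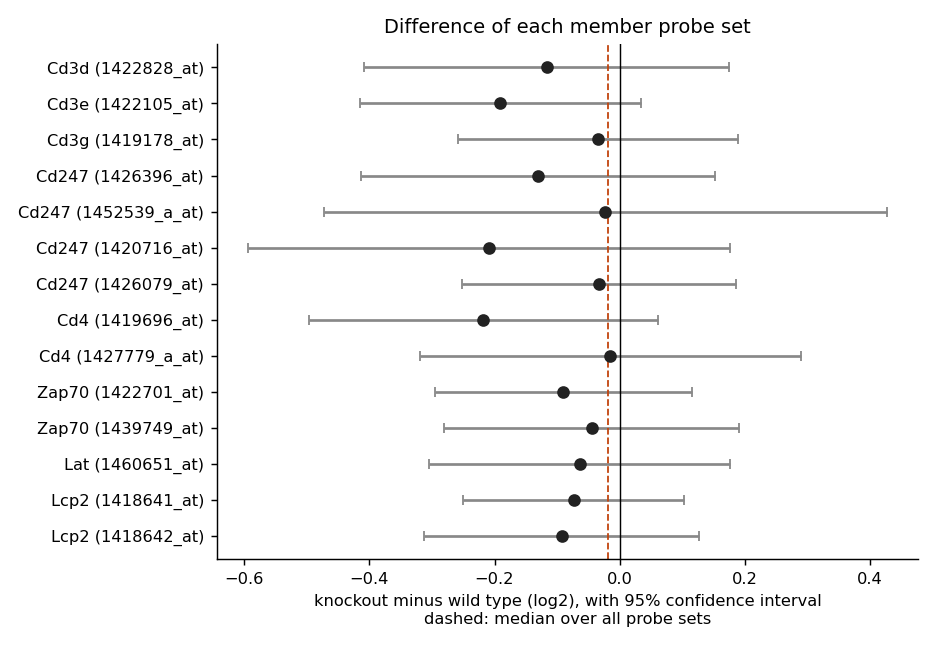
Difference between the groups for each of the 14 member probe sets, knockout minus wild type on the log2 scale, with its 95% confidence interval from limma; the dashed line is the median over all probe sets. Every interval includes 0, and the points lie between -0.22 and -0.01.

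Of the CD3 chains, Cd3d encodes the delta chain, which pairs with the epsilon chain. It read 12.38, 12.39 and 12.43 on wild type replicates 1, 2 and 3 and 12.57, 12.11 and 12.17 on knockout replicates 1, 2 and 3. Knockout replicate 1 lay above every wild type array and the other 2 knockout arrays lay below them all, so the groups overlapped. The difference of the means was -0.12 (SE 0.13, limma adjusted p = 0.691), and it was -0.26 without knockout replicate 1 and -0.03 without replicate 2.

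Cd3g, encoding the gamma chain, which also pairs with epsilon, showed the same arrangement. The wild type arrays had 11.72, 11.71 and 11.72 and the knockout arrays 11.86, 11.54 and 11.66. Wild type arrays thus spanned 0.01 on the log2 scale and knockout arrays 0.31. The means were 11.72 ± 0.01 and 11.69 ± 0.16 (difference -0.03, adjusted p = 0.893).

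Cd3e encodes epsilon, the chain present in both CD3 pairs. Its values were 11.46, 11.38 and 11.47 in wild type and 11.39, 11.08 and 11.27 in the knockout. Here knockout replicate 1 lay inside the wild type range rather than above it. The difference of -0.19 (95% confidence interval -0.42 to 0.03, adjusted p = 0.376) had the lowest p of the 14 probe sets.

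Cd247 encodes the zeta chain, which carries more phosphorylation motifs than any CD3 chain, and was read by 4 probe sets. The brightest (1426396_at) read 10.34, 10.06 and 10.25 in wild type and 10.30, 9.93 and 10.04 in the knockout, a difference of -0.13 (adjusted p = 0.643). The next (1452539_a_at) had 8.76, 8.49 and 8.80, and 9.11, 8.34 and 8.54, the widest knockout range of the 14 probe sets at 0.77. Another (1420716_at) had 7.25, 7.07 and 7.29, and 7.38, 6.76 and 6.84. In all of these, knockout replicate 1 was the highest knockout array and replicate 2 the lowest. The group differences of 1452539_a_at and 1420716_at were -0.02 and -0.21, with adjusted p of 0.968 and 0.576. The dimmest (1426079_at) lay under the lower quartile of every array, between 2.86 and 3.08, and did not follow that order. Without knockout replicate 1 the probe set 1420716_at was at -0.40 (limma adjusted p = 0.0937), the lowest adjusted p of any member in any setting tried.

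Cd4 is the coreceptor that binds MHC class II and brings Lck to the receptor. It is also, with CD25, a protein by which the cells were separated, so its transcript is tied to the selection. Its brighter probe set read 9.33, 9.36 and 9.31 in wild type and 9.37, 9.05 and 8.92 in the knockout. Replicate 3, not replicate 2, was the lowest knockout array. The means were 9.33 ± 0.02 and 9.11 ± 0.23, a difference of -0.22 with an SE of 0.12 (limma adjusted p = 0.416). It was -0.35 without knockout replicate 1 (adjusted p = 0.0949) and -0.12 without replicate 3. The dimmer one had 5.46, 5.24 and 5.51, and 5.59, 5.42 and 5.15, and the groups overlapped there too.

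Zap70, the kinase recruited to phosphorylated CD3 and zeta chains, differed from the receptor chains in its pattern. It read 10.37, 10.36 and 10.59 in wild type and 10.35, 10.36 and 10.34 in the knockout. The 3 knockout arrays spanned 0.02, and it was the spread of the wild type arrays, with replicate 3 above the rest, that made the difference of -0.09 (adjusted p = 0.662). It was the 1 member probe set whose groups did not overlap, by less than 0.01, where 13.6% of all probe sets had every knockout array below every wild type array. Its other probe set had 7.61, 7.91 and 7.91, and 7.73, 7.79 and 7.78, and overlapped.

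The adaptors Lat and Lcp2 differed from each other in pattern. Lat, the membrane scaffold phosphorylated by Zap70, read 11.24, 11.23 and 11.37 in wild type and 11.40, 11.09 and 11.16 in the knockout, in the array order of the CD3 chains. Its difference was -0.06 (SE 0.10, adjusted p = 0.802). Lcp2, the cytosolic adaptor SLP-76 that joins Lat, read 11.07, 11.07 and 11.01 in wild type and 11.05, 10.97 and 10.92 in the knockout, a difference of -0.07 (adjusted p = 0.678). Its second probe set had 7.96, 7.68 and 7.71, and 7.69, 7.70 and 7.68, with 1 high wild type array and a knockout range of 0.02.

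**Figure D2:**
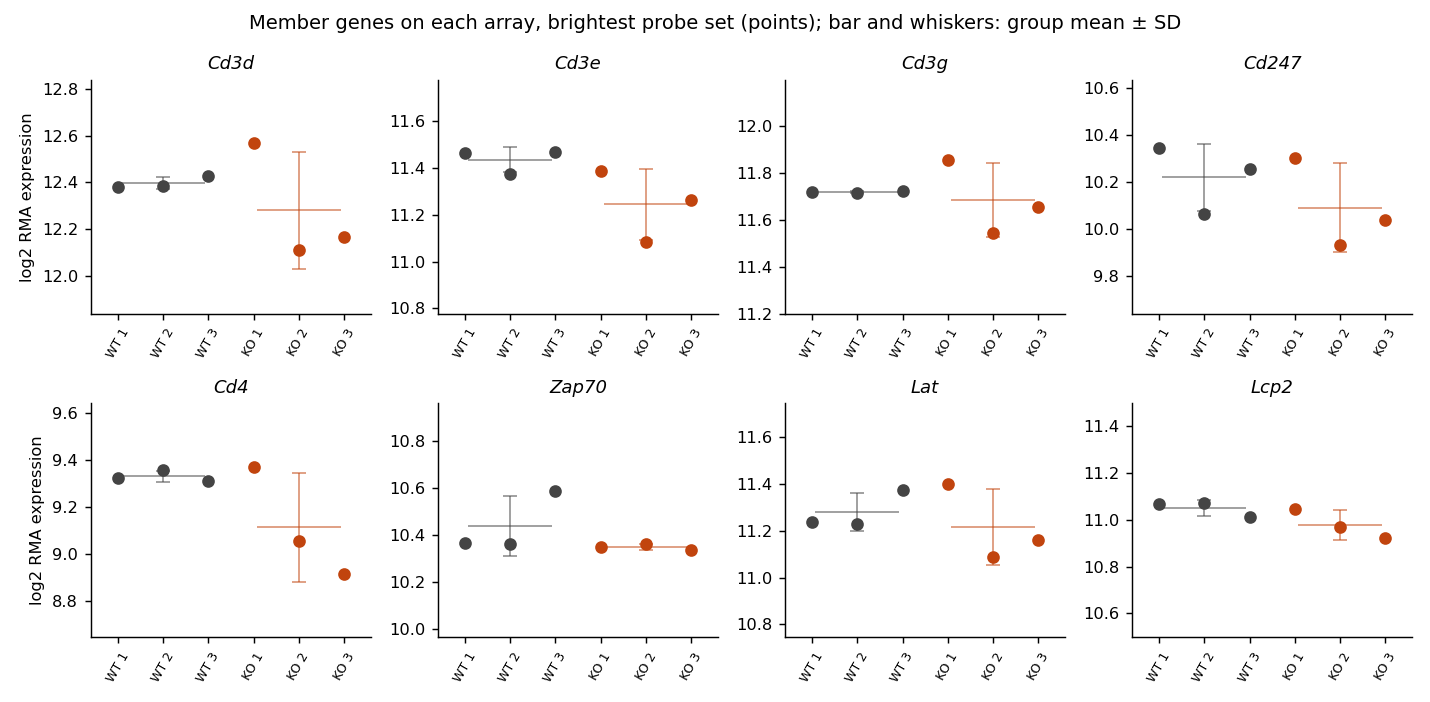
Log2 RMA expression of the 8 measured genes, brightest probe set each, on wild type (WT, grey) and knockout (KO, orange) arrays 1 to 3; every panel spans 1 log2 unit, the horizontal bar is the group mean and the whiskers are SD over 3 arrays. Cd3d, Cd3g, Cd4 and Lat have knockout replicate 1 above all wild type arrays and replicates 2 and 3 below them, while Zap70 and Lcp2 vary less among knockout arrays.

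The knockout arrays spanned more than the difference between the group means in 12 of the 14 probe sets, as in 77.2% of all probe sets. In 10 of the 14 knockout replicate 1 was the highest of the 3 knockout arrays, against 35.3% of all probe sets. Replicate 1 was highest and replicate 2 lowest in 7, which were Cd3d, Cd3e, Cd3g, Lat and 3 of the 4 Cd247 probe sets, against 19.4% of all. Replicate 1 was highest and replicate 3 lowest in 3, both Cd4 probe sets and the brighter of Lcp2, against 15.8% of all. Replicate 2 lay below every wild type array in 10 of 14 (37.9% of all) and replicate 3 in 11 of 14 (33.6% of all). The members share arrays and some share a gene, so these counts are descriptions.

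The size of the step between knockout arrays varied from gene to gene. Replicate 2 minus replicate 1 was -0.46 for Cd3d, -0.30 for Cd3e, -0.31 for Cd3g, -0.37 for the brightest Cd247 probe set, -0.31 for Lat and -0.31 for the brighter Cd4 probe set. It was -0.08 for Lcp2 and 0.01 for Zap70, each by the brighter probe set. The same step read by the Cd247 probe sets 1452539_a_at and 1420716_at was -0.77 and -0.63, so probe sets of 1 gene gave steps of different size. Knockout SD exceeded wild type SD in 10 of the 14, as in 60.7% of all probe sets.

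**Figure D3:**
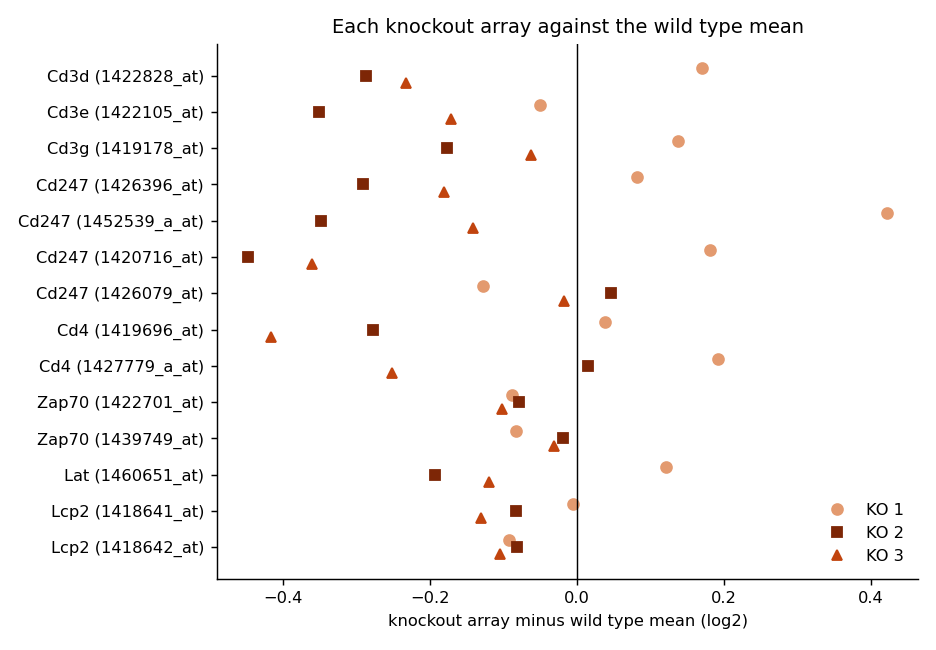
Each knockout array minus the wild type mean of the same probe set (log2), for the 14 member probe sets; circles, squares and triangles are knockout replicates 1, 2 and 3. Replicate 1 lies to the right of the other knockout arrays for the CD3 chains, 3 Cd247 probe sets, Cd4 and Lat, and the knockout arrays lie close together for Zap70 and Lcp2.

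As a gauge per array, the mean over the 8 genes, each by its brightest probe set, was 10.99, 10.94 and 11.02 for wild type replicates 1, 2 and 3. For knockout replicates 1, 2 and 3 it was 11.03, 10.77 and 10.81. Relative to the wild type mean these were 0.05, -0.22 and -0.18, so that replicate 1 lay slightly above it and replicates 2 and 3 were 1.16-fold and 1.13-fold lower. The group means differed by -0.11, and by -0.20 without knockout replicate 1 and -0.06 without replicate 2. All 8 genes lay below their wild type mean on replicate 2 and all 8 on replicate 3, but 3 of 8 on replicate 1 (Cd3e, Zap70 and Lcp2). The mean of the CD3 and zeta chains alone was at 0.08, -0.28 and -0.16 relative to wild type on knockout replicates 1, 2 and 3. That of Zap70, Lat and Lcp2 was at 0.01, -0.12 and -0.12.

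Markers of other cells also differed between the arrays, in an order that was not the same for every list. Of 17 listed neutrophil markers 15 were measured, with a mean level of 5.89 to 6.25 in wild type. Knockout replicates 1, 2 and 3 had means of 7.86, 9.81 and 8.51. All 15 had a positive difference, where 53.7% of all genes had a negative one, and 9 were called higher, against 1.19% of all probe sets. The calprotectin gene S100a8 was at 9.49 ± 0.40 in wild type and 12.95 ± 0.76 in the knockout (limma adjusted p = 0.00934), and leaving out wild type replicate 1 or 3 ended that call (adjusted p = 0.0573 and 0.0620). The knockout array with the lowest CD3 and zeta chain mean thus had the highest neutrophil mean, and the array with the highest had the lowest. Replicate 1 also had a neutrophil mean above wild type, by 1.80, while its mean of the members was not below wild type. Their part in the members' values was not tested.

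Among other leukocytes, 14 of 15 listed monocyte and macrophage markers were measured, with means of 5.18 to 5.66 in wild type and 6.21, 6.41 and 6.27 on knockout replicates 1, 2 and 3. All 14 had a positive difference (median 0.94). By its brightest probe set 1 gene was called higher, against 1.19% of all probe sets. It was the lipopolysaccharide coreceptor gene Cd14 (3.57 ± 0.09 and 4.86 ± 0.41, limma adjusted p = 0.0223). The chemokine receptor gene Ccr2 was called higher by 2 dimmer probe sets (adjusted p = 0.0255 and 0.0300). Both genes were picked out after their values were seen, and leaving out any 1 wild type array ended these calls (adjusted p 0.0596 to 0.141), as did leaving out knockout replicate 3 for both Ccr2 probe sets (0.0560 and 0.0853) and replicate 2 for 1 of them (0.0731). The 11 measured of 12 CD8 T and NK cell markers averaged 7.67 to 8.04 in wild type and 7.74, 8.49 and 8.40 in the knockout, again lowest on knockout replicate 1. Of these, the NK receptor gene Ncr1 rose from 5.51 ± 0.07 to 8.01 ± 0.85 (limma adjusted p = 0.0223), a call that ended without knockout replicate 3 or any 1 wild type array (adjusted p 0.0705 to 0.106) and under trend and robust variance (0.0579). Ncr1 was the 1 called gene of that list, against 1.19% of all probe sets called higher, and had its highest difference. Of the 11 differences 4 were negative, and Cd8a had 7.27 ± 0.50 and 6.91 ± 0.43. The mean over 10 of 11 listed B cell markers was 7.36 to 8.45 in wild type and 7.17, 8.01 and 7.92 on knockout replicates 1, 2 and 3, lowest on replicate 1. The 5 measured of 9 erythroid markers averaged 3.88 to 4.22 in wild type and 4.51, 4.32 and 5.15 in the knockout, lowest on replicate 2, and the 5 of 7 dendritic cell markers 5.16 to 5.36 and 5.30, 5.67 and 5.50. The defining macrophage and dendritic genes Csf1r (7.55 ± 0.71 and 8.08 ± 0.28) and Itgax (6.66 ± 0.17 and 7.13 ± 0.37) did not pass, and the Csf1r difference of 0.53 was 0.12 without wild type replicate 3. The erythroid marker Hba-a1 (3.29 ± 0.04 and 3.29 ± 0.24) and the thymocyte marker Rag1 (3.60 ± 0.14 and 3.74 ± 0.34) had group means under the lower quartile or close to it. The Hba-a1 difference was the lowest of the 5 erythroid genes, whose highest was 1.52. The 4 thymocyte markers averaged 3.76 to 3.91 in wild type and 3.83 to 3.96 in the knockout. The part of these cells in the members' values was not tested.

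**Figure D4:**
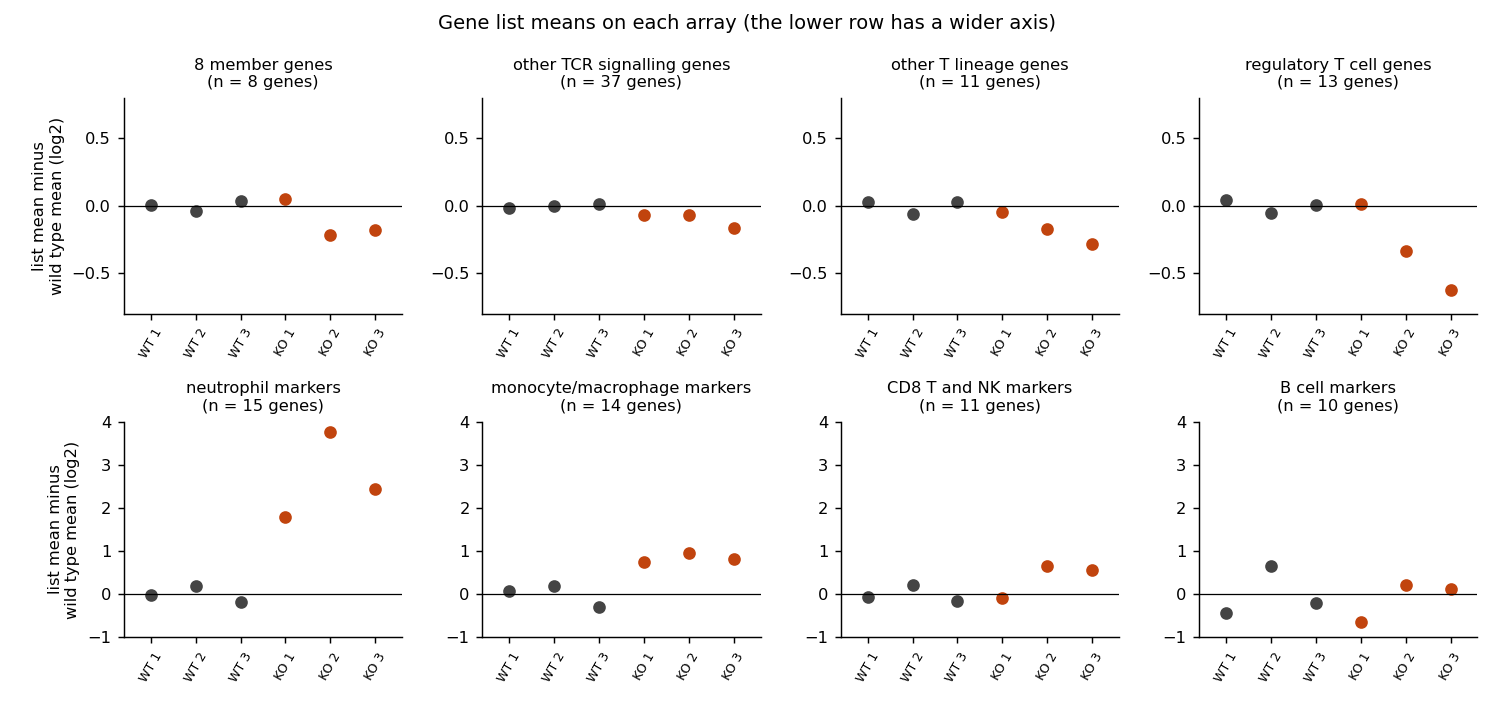
Mean level of 8 gene lists on each array, as the difference from the mean of the 3 wild type arrays (log2); the upper row spans -0.8 to 0.8 and the lower row -1 to 4. The members lie at 0.05, -0.22 and -0.18 on knockout replicates 1, 2 and 3, and the neutrophil markers at 1.80, 3.75 and 2.45.

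The means of other T cell gene lists had another array order. Of 12 listed T lineage genes, such as Thy1 and Bcl11b, 11 were measured, and 0 were called by their brightest probe set, against 1.68% of all probe sets. The T lineage gene Ets1, a transcription factor of the ETS family, had 4 probe sets that went in different directions. Its 2 dimmer ones were called higher in the knockout, 1422027_a_at going from 7.69 ± 0.01 to 8.13 ± 0.09 (SD over 3 arrays a group, limma adjusted p = 0.0436) and 1422028_a_at from 7.78 ± 0.07 to 8.35 ± 0.13 (limma adjusted p = 0.0302). Its 2 brighter ones were not called and were at -0.31 and -0.19 (limma adjusted p = 0.146 and 0.276). The mean of the 11 T lineage genes was at -0.05, -0.17 and -0.29 relative to wild type on knockout replicates 1, 2 and 3. Of their 11 differences 9 were negative, and they ran from -0.49 to 0.40. The 13 measured of 14 regulatory T cell genes were at 0.02, -0.34 and -0.62. Of their 13 differences 10 were negative, against 53.7% over all genes, and they ran from -0.80 to 0.64. Of these genes 3 were called lower, against 0.486% of all probe sets. The 3 were Il2ra, Ikzf2 and Nrp1. Il2ra, the gene of the interleukin-2 receptor alpha chain CD25, was at -0.64 (limma adjusted p = 0.0444). CD25, like CD4, is a protein by which the cells were separated, so the Il2ra transcript is also tied to the selection. The transcription factor gene Ikzf2 was at -0.77 (limma adjusted p = 0.0400) and the surface receptor gene Nrp1 at -0.80 (limma adjusted p = 0.0300). Ets1 and these 3 genes were picked out after their values were seen, and each of the 5 called probe sets lost its call in 5 of the 6 fits that left out 1 array, the exception being knockout replicate 2 for Ikzf2 and knockout replicate 1 for the others. These lists were thus lowest on replicate 3, as was Cd4, while the CD3 and zeta chains were lowest on replicate 2.

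Further along the pathway, 37 of 47 listed genes of T cell receptor signalling were measured by 60 probe sets, of which 1 was called lower and 0 higher, against 0.486% and 1.19% of all probe sets. Their median difference was -0.08, equal to that of the members at 2 decimals, and 41 of the 60 were negative, against 54.8% of all probe sets. The array order was another one. The mean of the 37 genes was at -0.07, -0.07 and -0.17 relative to wild type on knockout replicates 1, 2 and 3. That of the members was at 0.05, -0.22 and -0.18. The called gene was Dgkz (1452169_a_at), whose product, a diacylglycerol kinase, removes the second messenger made by phospholipase C and so dampens the signal. It read 11.72, 11.74 and 11.81 in wild type and 11.38, 11.34 and 11.35 in the knockout. Every knockout array lay below every wild type array, as in 13.6% of all probe sets. Dgkz was 1.32-fold lower (difference -0.41, SE 0.07, limma adjusted p = 0.0432). Leaving out any 1 array ended the call, with adjusted p between 0.0516 and 0.187 and differences between -0.42 and -0.38. Under all settings tried the adjusted p ran from 0.0103 to 0.187.

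The 6 pathway genes with the next lowest p did not pass. Cd28, the costimulatory receptor, measured 10.23 ± 0.11 in wild type and 9.85 ± 0.08 in the knockout (limma adjusted p = 0.0881). All its knockout arrays lay below all wild type arrays, as in 13.6% of all probe sets. Cbl, a ubiquitin ligase that limits receptor signalling, was at 8.37 ± 0.10 in wild type, with a difference of -0.37 (adjusted p = 0.211). Vav1, an exchange factor bound to Lcp2, had 7.64 ± 0.01 and 7.41 ± 0.10 (adjusted p = 0.231). The calcium-driven transcription factor gene Nfatc1 was at 9.20 ± 0.04 in wild type, with a difference of -0.20. Dgka, a second diacylglycerol kinase gene, had 11.42 ± 0.07 and 11.10 ± 0.31, with 11.43, 11.06 and 10.82 on the knockout arrays. Fyb, an adaptor that links Lcp2 to integrins, had 10.64 ± 0.07 and 10.44 ± 0.14. The adjusted p of the last 3 lay between 0.337 and 0.350.

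Genes outside the pathway followed the members' mean closely over the 6 arrays. Likeness was measured as the root mean square distance between values centred on their own mean, among 5950 genes at or above the median level with a range of at least 0.5 times the members' range of 0.27. The nearest were Dap3 (distance 0.021), Nsun4 (0.024), Uqcrh (0.024), Eif3i (0.025) and Gnpnat1 (0.025). Dap3, for example, had 9.80, 9.80 and 9.85 in wild type and 9.89, 9.61 and 9.68 in the knockout (adjusted p = 0.670). Dap3 encodes a mitochondrial ribosome protein, Nsun4 an RNA methyltransferase that acts in mitochondrial ribosome assembly, Uqcrh a subunit of respiratory complex III, Eif3i a translation initiation factor subunit and Gnpnat1 an enzyme of hexosamine synthesis, and none of them is specific to T cells.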

How the data were processed

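The deposited values are log2 expression per probe set, made by the authors with RMA, per the submitters' processing notes, which state neither its version nor its settings. RMA normalises between arrays and compresses low levels. Of 22690 probe sets 64 controls were left out, leaving 22626, of which 20380 had 1 gene symbol in the platform's annotation, 691 several and 1555 none. Groups were compared with limma 3.58.1 (lmFit, eBayes, two-sided) in R 4.3.3 on all 22626, with no filter on dim probe sets and Benjamini-Hochberg adjustment over all of them, called under 0.05. The test was tried on simulated data. List means take each gene's brightest probe set by the mean over 6 arrays. The number of arrays limits the precision.

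The members, lists and tests were chosen with earlier results of these data known. Named were all members, called pathway genes and the 6 with the next lowest p, Dnmt1, Foxp3, the defining marker of each list where measured, and the 5 genes nearest to the members' mean, planned over 9 genes and taken over 8, and 6 genes picked out afterwards. The main test did not pair the arrays by replicate number. Deviations from group means correlated at -0.08, 0.11 and -0.01 for equal numbers and at -0.11 to 0.12 for unequal numbers. With 3 arrays a group these values cannot settle whether the arrays were paired. Alternatives were other normalisations, a filter, gene-level tests, other variance models, a replicate block and leaving out each array. Figures were drawn with matplotlib 3.10.9.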

Additional observations from a re-analysis of the deposited data

How the results depend on the processing

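The count of 0 called member probe sets held under all 15 alternatives, at fewer probe sets where the filter left 13 or genes were tested (8). Over all probe sets 380 were called, and 236 with 1 probe set per gene, 218 with the replicate block and 29 to 756 with 1 array left out (45, 79 and 29 without wild type replicates 1, 2 and 3, and 756 and 184 without knockout replicates 1 and 3). Of the pathway probe sets 1 was called, and 0 with cyclic loess, 0 with the replicate block, 2 with trend and robust variance (Dgkz and Cd28) and 0 whichever array was left out.

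Of 197 member differences under alternatives 16 changed sign, in 6 probe sets, and none of these was called. With cyclic loess Cd3g was at 0.0181, the Cd247 probe set 1452539_a_at at 0.0287 and the dimmer of Zap70 at 0.00887. With 1 array left out, Cd3g ran from -0.119 to 0.0375, the Cd247 probe sets 1452539_a_at from -0.244 to 0.140 and 1426079_at from -0.104 to 0.0144, the dimmer of Cd4 from -0.118 to 0.103, the dimmer of Zap70 from -0.145 to 0.00655 and Lat from -0.156 to 0.000466. Those that kept their sign ran, with 1 array left out, from -0.261 to -0.11 for Cd3e, -0.236 to -0.0499 and -0.403 to -0.0896 for the Cd247 probe sets 1426396_at and 1420716_at, -0.128 to -0.0149 for the brighter of Zap70, and -0.107 to -0.0446 and -0.143 to -0.0049 for the Lcp2 probe sets 1418641_at and 1418642_at. The members' mean difference ran from -0.20 to -0.06 over its alternatives. The other 31 named probe sets were recomputed as an addition made after seeing the data. Of their values, 7 changed sign: Hba-a1 was at -0.0142 (quantile), -0.0279 (median centring) and -0.0040 (cyclic loess) and ran from -0.137 to 0.0729 with 1 array left out, Rag1 ran from -0.0496 to 0.266, and Ets1 was at 0.128 as the mean of its probe sets. The replicate block ended the calls of Il2ra (adjusted p = 0.0617), Ikzf2 (0.0679), both Ets1 probe sets (0.111 and 0.0739) and both of Ccr2 (0.0810 and 0.0679), but not those of Nrp1 and Cd14, and the mean of a gene's probe sets ended that of Il2ra (0.0918). Read depth does not apply to arrays, and the 95% intervals show the precision that 6 arrays give.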
